A study of Mus musculus with 8 samples.

Results

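Epithelial marker genes were examined in MC3T3-E1 osteoblasts, a mouse line from skull bone, that had been grown with tumour cells. The markers were the keratins Krt5, Krt7, Krt8, Krt14, Krt18 and Krt19, the adhesion proteins Cdh1 and Epcam (Tacstd1 in older names) and the laminin chain Lamb3. Every non-control probe that the scanner files name after one of these was taken, whatever its signal, which gave 11 probes of 9 genes among 41174 probes of 28786 genes or transcripts. The co-cultured tumour cells carried an empty vector or overexpressed the Notch ligand Jagged1, and each kind was given solvent (DMSO) or the compound MRK-003, which blocks gamma-secretase, the enzyme whose cut sets the signalling part of Notch receptors free. Each of the 4 groups had 2 biological replicates. The 8 two-colour Agilent arrays carried a co-culture's RNA in Cy3 and Universal Mouse Reference RNA (Stratagene), the same on every array, in Cy5, with no dye swap. Nothing in the labels names the tumour line, its species or the way osteoblasts were parted from tumour cells, and no array of either cell type alone was analysed here. The data were therefore asked whether RNA of epithelial origin was seen at all, and whether it differed between groups.

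Keratins are the intermediate filament proteins of epithelia, and carcinoma cells usually keep them. They assemble as pairs of a type II and a type I chain: Krt8 and Krt7 pair with Krt18 and Krt19 in simple (single-layered) epithelium, and Krt5 pairs with Krt14 in the basal layer of stratified epithelium. Cdh1 (E-cadherin) and Epcam hold epithelial cells together, and Lamb3 is a chain of laminin-332, which anchors basal cells to the basement membrane. Osteoblasts are mesenchymal cells, which use vimentin filaments and the cadherins Cdh2 and Cdh11.

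The probes are 60 bases long and are placed by the files on mouse build mm7. Krt8 and Krt18 lie on chromosome 15, with 34936 bases between the Krt8 probe A_51_P242399 (chr15:101983072-101983131, minus strand) and the Krt18 probe A_51_P324814 (chr15:102018067-102018126, plus strand). These 2 probes are shown because this keratin pair had the lowest ratios of sample to reference among the markers; each is given up to its stop codon, and the capitals mark the longest run of bases that any 2 of the 11 probes share, 11 bases.
Krt8: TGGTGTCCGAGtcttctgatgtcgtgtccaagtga
Krt18: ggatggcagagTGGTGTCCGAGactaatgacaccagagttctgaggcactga
Over all 55 pairs of probes the median longest shared run was 6 bases, and the second longest was 8. The next probes are shown because Krt19 and Epcam were among the farthest below the reference and Krt14 had the smallest p among the tests below, and they lie on chr11:100250117-100250176 (minus strand), chr17:85952074-85952902 (plus strand) and chr11:100312408-100313013 (minus strand).
Krt19: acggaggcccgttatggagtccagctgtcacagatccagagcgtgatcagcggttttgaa
Epcam: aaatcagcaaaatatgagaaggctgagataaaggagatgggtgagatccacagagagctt
Krt14: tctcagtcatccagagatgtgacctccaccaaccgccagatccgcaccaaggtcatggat
The Epcam and Krt14 probes span 829 and 606 genomic bases, and that of Lamb3 (chr1:192893546-192896077) spans 2532, so these 3 cross introns. The Krt7 probes lie at chr15:101409444-101409503 (A_52_P410685) and chr15:101413898-101413957 (A_51_P312348), the second Krt8 probe A_51_P242400 at chr15:101982940-101982999, the Krt5 probe at chr15:101693240-101693299 and the Cdh1 probe, printed on 10 spots, at chr8:105268557-105268616.

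The arrays differed by slide. Replicate 1 of every group was on slide 1 and replicate 2 on slide 2, so replicate, slide and scan are one factor. The median Cy3 signal was 165 to 204 scanner units on slide 1 and 76.5 to 117 on slide 2, and Cy3 was well above background (a flag of the scanner software) on 86.0% to 89.4% and 71.4% to 78.6% of spots. Local backgrounds over 2 times the array median were set to that limit; the highest was 32904, on replicate 2 of the Jagged1 MRK-003 group, and 21069 on replicate 2 of the Jagged1 DMSO group. None of the 160 spot measurements of the marker probes (20 spots on 8 arrays) had such a background, and none was saturated in Cy3.

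With the main processing all marker probes had a mean level below that of the reference RNA, Krt5 only just. Levels here are log2 ratios of Cy3 over Cy5 after normalization, and each tells how a co-culture compares with the reference for that probe, not how abundant 1 gene is against another. The means over 8 arrays ran from -5.75 for Krt8 (A_51_P242399) to -0.05 for Krt5. The median over the 10 probes that passed the signal filter was -3.54, -3.42, -3.45 and -3.51 on slide 1 and -3.13, -2.94, -3.03 and -3.13 on slide 2, with the DMSO groups first and vector before Jagged1 in each treatment. Slide 2 was higher in every group, and the groups spanned 0.13 on slide 1 and 0.19 on slide 2.

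Krt8, Krt18 and Krt19 of simple epithelium, with Epcam, were the farthest below the reference. Krt8 on probe A_51_P242399 had levels of -5.76 and -5.86 in vector DMSO, -5.57 and -5.72 in Jagged1 DMSO, -5.58 and -5.90 in vector MRK-003, and -5.64 and -5.99 in Jagged1 MRK-003 (replicates 1 and 2). The mean of -5.75 is at least 53.9-fold below the reference, since its Cy5 signal was saturated on replicate 1 of both MRK-003 groups and the ratio there is an upper bound. The Jagged1 DMSO arrays were both above the vector DMSO arrays while the other groups overlapped them. The second Krt8 probe gave -4.95 and -4.60, -4.76 and -4.59, -4.72 and -4.80, and -5.05 and -4.92 in the same order, a mean of -4.80, with Cy5 saturated on replicate 1 of vector MRK-003. Its lowest pair was the Jagged1 MRK-003 group.

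Krt18, the partner of Krt8, had levels of -4.79 and -5.95 in vector DMSO, -4.19 and -5.65 in Jagged1 DMSO, -4.67 and -5.45 in vector MRK-003, and -4.47 and -5.53 in Jagged1 MRK-003. All 4 slide 1 arrays were above all 4 slide 2 arrays, with a mean gap of 1.11, and every pair of groups overlapped. The Cy5 signal of Krt18 was saturated on 7 of 8 arrays, so its ratio there is an upper bound. Its Cy5 net signal was 59578 to 64355 units over the 8 arrays, while its Cy3 net signal ran from 539 to 1586. Its ratios, with their gap between slides and their differences between groups, therefore mainly follow Cy3. Krt19, the other type I chain of simple epithelium, had -4.76 and -4.33, -4.54 and -4.40, -4.68 and -4.33, and -4.65 and -4.42, with no pair of groups apart.

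Krt7, the type II chain of ducts and glands, differed between its 2 probes. Probe A_51_P312348 had levels of -2.81 and -2.78 in vector DMSO, -2.64 and -2.42 in Jagged1 DMSO, -2.67 and -2.58 in vector MRK-003, and -2.73 and -2.69 in Jagged1 MRK-003; probe A_52_P410685 ranged from -1.21 to -0.82 with a median of -1.08. Both were below the reference on every array.

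Of the adhesion genes, Epcam had levels of -4.28 and -3.48 in vector DMSO, -4.23 and -3.46 in Jagged1 DMSO, -4.22 and -3.48 in vector MRK-003, and -4.28 and -3.57 in Jagged1 MRK-003. Here slide 2 was above slide 1 by 0.76, the opposite of Krt18, whose Cy5 was at or near saturation on both slides. The 4 groups spanned 0.06 on slide 1 and 0.11 on slide 2 for Epcam. Cdh1 had levels between -0.63 and -0.20, but most of its 10 Cy3 spots were well above background only on replicate 1 of each MRK-003 group, with 10 and 9 spots, against 3 on replicate 1 of vector DMSO, 1 on replicate 2 of Jagged1 MRK-003 and 0 on the other arrays. It failed the signal filter, so it has no test. Its Cy5 net signal was low as well, at 40.7 to 94.3 units, but was well above background in 79 of 80 spot measurements.

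The basal markers were nearer the reference. Krt14 had levels of -0.76 and -0.94 in vector DMSO, -0.40 and -0.50 in Jagged1 DMSO, -0.50 and -0.81 in vector MRK-003, and -0.57 and -0.66 in Jagged1 MRK-003. The Jagged1 DMSO arrays were both above the vector DMSO arrays. Krt5, its partner, ranged from -0.14 to 0.06 with a median of -0.01, and Lamb3 from -1.52 to -0.85 with a median of -1.19.

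**Figure D1:**
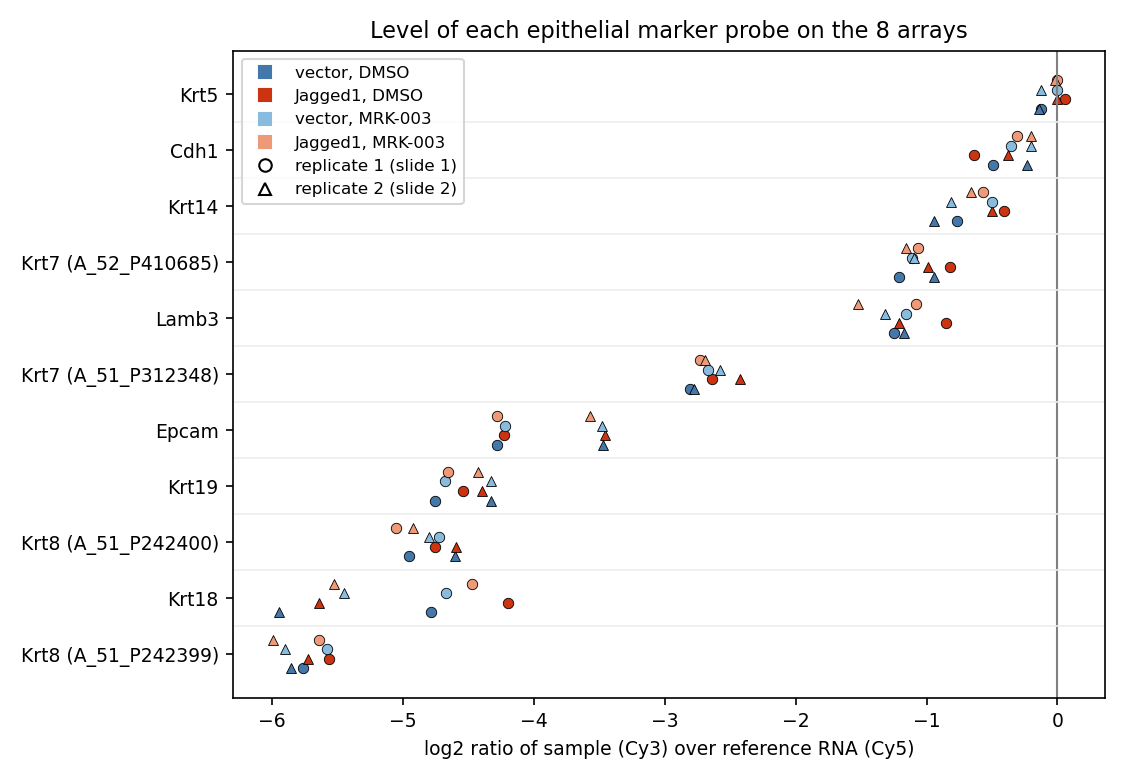
Each point is the log2 ratio of sample over reference of a marker probe on 1 array (x axis), with probes in rows ordered by mean, colours for the 4 groups and circles or triangles for slides 1 and 2. Krt8, Krt18, Krt19 and Epcam lie between -6 and -3.4, Krt18 and Epcam split by slide in opposite directions, and Krt5 lies at 0.

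The offset of 50 added before the logarithm pulls dim probes towards 0. With the scanner software's processed signals, which have no such offset, the mean level was -4.96 rather than -3.87 for Epcam, -5.18 rather than -4.51 for Krt19, -1.92 rather than -1.19 for Lamb3 and -1.56 rather than -0.35 for Cdh1. It was -5.92 for Krt8 (A_51_P242399) and -5.19 for Krt18, close to the values above. For Krt5 it was 0.06 rather than -0.05, so the side of the reference on which Krt5 lay depended on the processing.

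Low relative to the reference did not mean dark. Cy3 was well above background on all 8 arrays for 10 of the 11 probes, with Cdh1 the exception. On the Krt18 spot the Cy3 signal minus local background was 1106 and 539 scanner units in vector DMSO, 1586 and 619 in Jagged1 DMSO, 1239 and 627 in vector MRK-003, and 1237 and 707 in Jagged1 MRK-003. The 153 negative control spots had a 95th percentile of 5.81 to 10.8 units on the same arrays. Krt18 was thus far above the controls on every array, and every slide 1 value was above every slide 2 value. The controls were dark in Cy5 too, with a 95th percentile of 11.3 to 18.0 units net. They are thus no match for a spot as bright in Cy5 as Krt18, and do not show where its Cy3 signal came from.

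Krt8 gave 521 and 316, 553 and 323, 626 and 331, and 522 and 343 units on probe A_51_P242399. Its second probe, A_51_P242400, gave 950 and 647, 1008 and 719, 1184 and 734, and 774 and 773. On slide 2 this probe was brighter than Krt18 in every group, and on slide 1 dimmer. Krt19 gave 98.4 and 54.7, 117 and 59.8, 126 and 69.6, and 110 and 77.0. Krt19 was 3.28 to 6.47 times its local background, against 21.3 to 54.8 times for Krt18.

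Epcam, 1 of the dimmest, gave 46.4 and 28.1, 54.0 and 31.6, 62.9 and 30.9, and 53.4 and 41.5 units, or 2.07 to 3.33 times its background. Lamb3 fell between 18.7 and 113 units and the 2 Krt7 probes between 26.3 and 118 (A_52_P410685) and 110 and 230 (A_51_P312348). Krt14 ranged from 145 to 537 and Krt5 from 114 to 906.

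Cdh1, averaged over its 10 spots, gave 10.7 and 8.28 units in vector DMSO, 6.72 and 6.25 in Jagged1 DMSO, 19.96 and 13.0 in vector MRK-003, and 19.3 and 18.7 in Jagged1 MRK-003. The 4 MRK-003 arrays were above the 4 DMSO arrays in these unnormalized values. Of its 80 spot measurements, 60 exceeded the 95th percentile of the negative controls of their array and 23 were well above background. After normalization, the Cdh1 level was -0.36 ± 0.19 in vector DMSO, -0.51 ± 0.18 in Jagged1 DMSO, -0.28 ± 0.11 in vector MRK-003 and -0.25 ± 0.07 in Jagged1 MRK-003 (SD, n = 2). The Jagged1 DMSO arrays lay below those of both MRK-003 groups and overlapped those of vector DMSO. Since Cdh1 was not well above background on both arrays of any group, no fold is given for it.

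**Figure D2:**
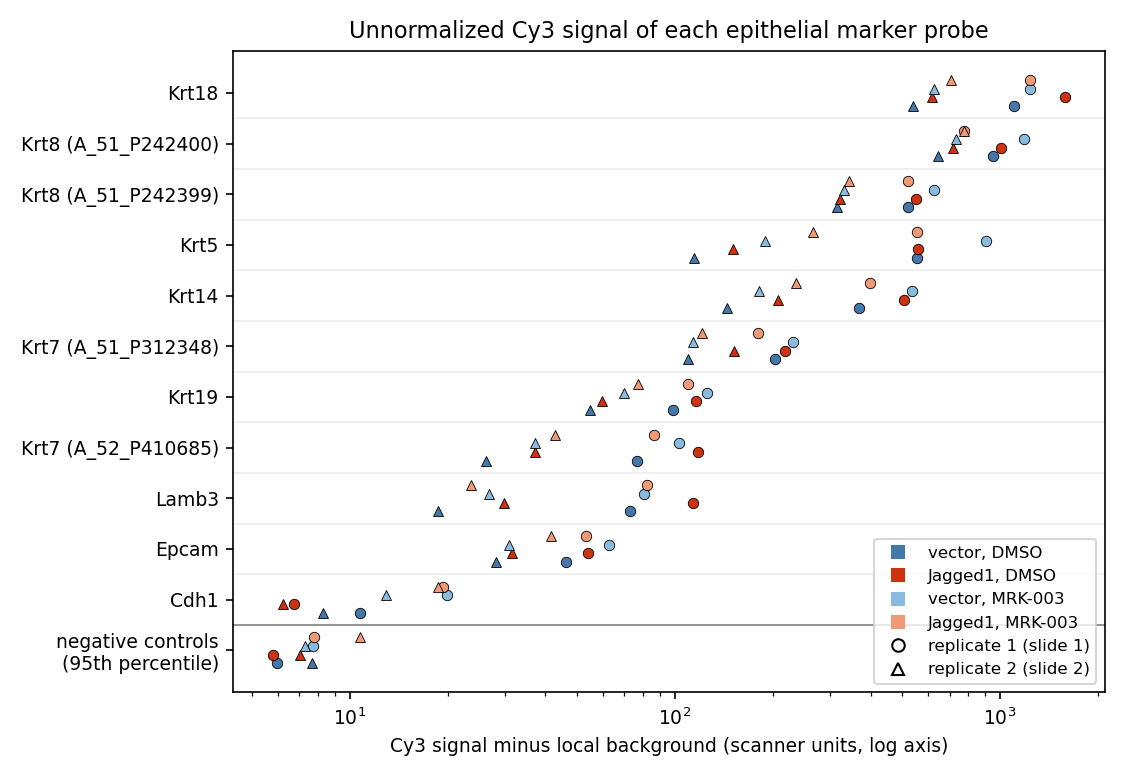
Each point is the Cy3 signal minus local background on 1 array, in scanner units on a log axis, for each marker probe (Cdh1 as the mean of 10 spots), with the 95th percentile of the 153 negative control spots in the lowest row. The 10 probes other than Cdh1 lie above the controls on all 8 arrays, and slide 2 (triangles) is dimmer than slide 1 (circles).

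The Cy3 signals were small beside those of the reference channel. Without normalization, Krt8 (A_51_P242399) had a Cy3 net signal that was 0.67% to 0.98% of its Cy5 net signal, the second Krt8 probe 1.25% to 2.38%, Krt19 1.16% to 1.54%, Epcam 1.12% to 1.90% and Krt18 0.90% to 2.46%. Where Cy5 was saturated (Krt18 on 7 arrays and the Krt8 probes on 2 and 1) the share is an upper bound. Among the 8648 to 15007 spots per array with a Cy5 net signal of at least 1000, the median share was 40.0% to 57.1% and the first percentile 1.45% to 2.02%. Krt8 (A_51_P242399) ranked above 0.20% to 0.38% of these spots, the second Krt8 probe above 0.73% to 1.73%, Krt19 above 0.43% to 0.91%, Epcam above 0.51% to 1.26% and Krt18 above 0.33% to 1.60%. These 4 genes therefore had some of the lowest ratios of sample to reference on each array.

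For scale, 2 immunoglobulin genes, transcribed in B lineage cells, were read in the same way; they were chosen after the values had been seen. Ighg had a Cy3 net signal of 252 to 599 units, or 0.63% to 1.19% of Cy5, and Igj 305 to 850 units, or 1.03% to 1.56%. Krt8 lay in the range of Ighg on probe A_51_P242399 and above it on A_51_P242400, and Krt19 lay within the range of Igj. Epcam was above the range of Igj on replicate 2 of every group but vector MRK-003 (1.74% to 1.90%), and within it on the other arrays. The Krt18 share was 1.72% to 2.46% on slide 1 and 0.90% to 1.10% on slide 2. On slide 1 the Cy5 net signal was 64329 to 64354 units for Krt18 and 64340 to 64353 for Ighg, both at the scanner's ceiling, so their shares there cannot be ranked. Igj was close to it there, at 63173 to 64317 units. Comparisons with either immunoglobulin range are therefore limited on slide 1. On slide 2, Cy5 was saturated for Ighg on the Jagged1 MRK-003 array (63920 units) and for Krt18 on every array but vector DMSO. Their shares on those arrays are upper bounds too. Whether the Cy3 signal of Krt8, Krt18, Krt19 and Epcam came from transcripts in the sample was not tested.

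The basal markers and Lamb3 did not sit at this low end. Krt14 had a Cy3 share of 18.7% to 34.0%, Krt5 31.5% to 48.2% and Lamb3 6.16% to 20.5%. On the 4 arrays where its Cy5 net signal reached 1000, Krt5 ranked above 43.4% to 59.5% of the spots, near the middle.

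**Figure D3:**
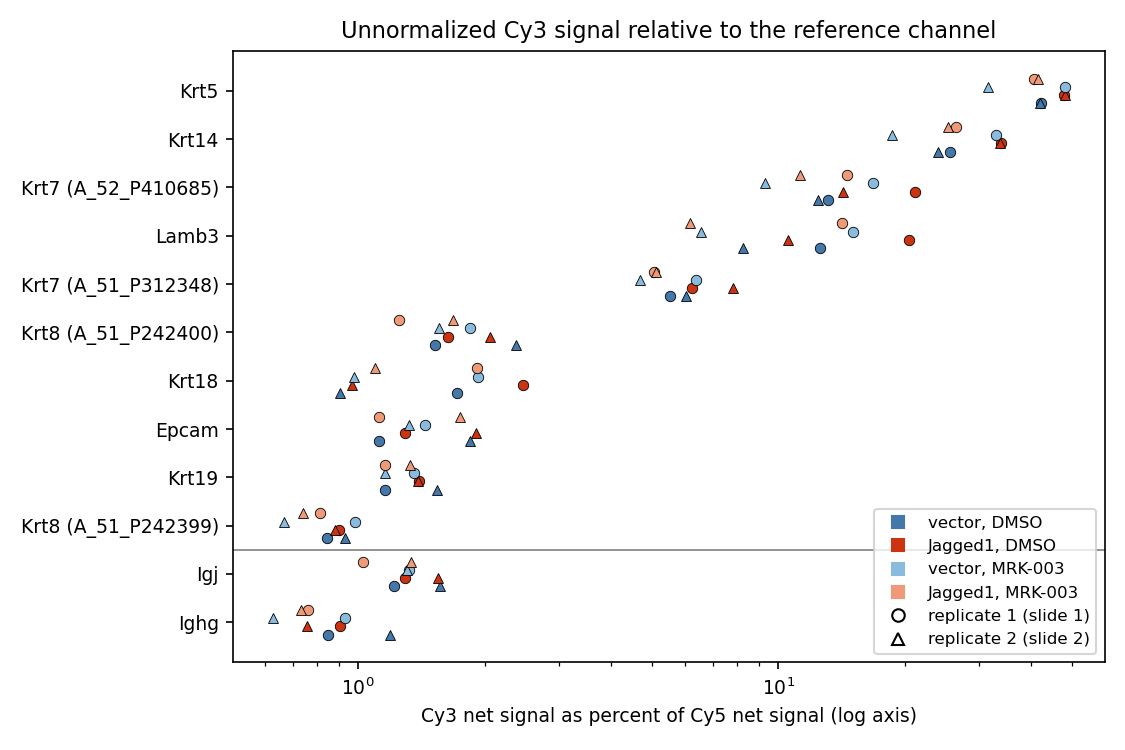
Each point is the Cy3 net signal as a percent of the Cy5 net signal on 1 array (log axis), before normalization, for the 10 marker probes with Cy3 above background and for the immunoglobulin genes Ighg and Igj below the line. Krt8, Krt19, Epcam and Krt18 lie between 0.67% and 2.46%, the immunoglobulin genes between 0.63% and 1.56%, and Krt5 reaches 48.2%.

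Jagged1 against vector cells in DMSO asks whether more marker RNA came with 1 kind of tumour cell. No marker probe passed the test (limma over 33060 probes, Benjamini-Hochberg adjusted p under 0.05), where 0.148% of all probes did, 49 in number (1013 with the replicate number as a block). The smallest difference among those 49 was 0.93 on the log2 scale, and 0.41 among the 1013, so differences as small as those of most markers were not called for any probe. All 10 tested probes had a positive difference, with a median log2 difference of 0.17 and a range of 0.04 to 0.45, against a median of -0.01 over all probes, of which 46.6% were positive. Krt14, the basal keratin, had a difference of 0.40 ± 0.14 (SE, 1.32-fold, limma adjusted p = 0.542), with 0.36 on slide 1 and 0.44 on slide 2. Krt7 (A_51_P312348) had 0.26 ± 0.11 (limma adjusted p = 0.673), with 0.17 and 0.36. These 2 probes had an unadjusted p under 0.05, as had 2413 of all probes.

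The other keratins had smaller or less certain differences. Krt18 had 0.45 ± 0.63 (limma adjusted p = 0.905), with 0.59 on slide 1 and 0.30 on slide 2, and Krt8 0.16 ± 0.16 and 0.10 ± 0.14 on its 2 probes. In this and the other comparisons the Krt18 difference mainly follows Cy3, since its Cy5 was at or near saturation. Krt19 had 0.07 ± 0.19, with 0.21 and -0.07 on the slides, Epcam 0.04 ± 0.42 and Krt5 0.16 ± 0.09. Lamb3 had 0.18 ± 0.18, and the second Krt7 probe 0.17 ± 0.12. For 4 of the 10 probes the 2 groups had no overlapping arrays (Krt14, Krt7 A_51_P312348, Krt8 A_51_P242399 and Krt5), against 41.5% of all probes.

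The 95% intervals differed in width between the markers. For Krt8 (A_51_P242399) the interval ran from 0.85-fold to 1.47-fold, for Krt19 from 0.77-fold to 1.44-fold and for Krt5 from 0.96-fold to 1.31-fold. Epcam, at 0.51-fold to 2.06-fold, and Krt18, at 0.48-fold to 3.85-fold, were the widest; these are the probes with the largest gaps between slides, which a fit with no block counts as spread. With the replicate number as a block the SE fell to 0.08 for Epcam and 0.15 for Krt18, and no marker probe passed.

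MRK-003 against DMSO in co-cultures with Jagged1 cells gave the opposite side. No marker probe passed, where 1.62% of all probes did, 537 in number (2905 with the replicate block), the smallest by 0.53 (0.34 with the block). All 10 differences were negative, with a median of -0.17 and a range of -0.31 to -0.04, against a median of 0.01 over all probes. The second Krt8 probe (A_51_P242400) had -0.31 ± 0.14 (limma adjusted p = 0.427), with -0.30 on slide 1 and -0.33 on slide 2. The first had -0.17 ± 0.16. Lamb3 had -0.27 ± 0.18, Krt7 -0.18 ± 0.11 and -0.21 ± 0.12, Krt14 -0.16 ± 0.14 and Krt18 -0.08 ± 0.63. The groups did not overlap for 5 of the 10 probes, against 44.5% of all.

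These 2 comparisons and the interaction share the Jagged1 DMSO arrays, so their signs are not separate observations. In such bulk RNA, fewer cells of a type and less RNA per cell cannot be told apart. The comparisons without those arrays had mixed signs in the main fit, and these depended on the processing. For Jagged1 in MRK-003 they changed when the limit on local backgrounds was removed and when there was no background correction. For MRK-003 with vector cells they changed with the signals and the normalization used. Jagged1 against vector in MRK-003 gave 3 positive and 7 negative differences, from -0.23 (Krt8 A_51_P242400) to 0.06 (Krt18), with a median of -0.05. With no limit on local backgrounds 9 of the 10 were positive, from -0.08 to 0.80, with a median of 0.34, against 0.00 over all probes. With no background correction 6 were positive, and with a limit of 1.5 or 3 times the array median 3 were. Neither a marker probe nor any other of the 33060 passed (0%, with 78 of all probes and none of the markers at an unadjusted p under 0.05), and 2 marker probes had no overlap against 16.1% of all.

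MRK-003 against DMSO with vector cells gave 8 positive and 2 negative differences, from -0.03 (Krt7 A_52_P410685) to 0.30 ± 0.63 (Krt18), with a median of 0.05. With the scanner software's processed signals all 10 were positive, with a median of 0.22. The same signals gave a median of 0.26 for Jagged1 in DMSO. The authors' deposited table gave 9 positive and a median of 0.20, while median centring and Cy3 alone each gave 5 positive. Again no probe passed in limma (0%, and 1 with the replicate block, no marker, with 1240 of all probes and none of the markers at an unadjusted p under 0.05), and 1 marker probe had no overlap against 25.5% of all. The interaction (how much larger the difference between Jagged1 and vector was under DMSO than under MRK-003) was positive for all 10 probes, from 0.10 to 0.38, and passed for none of the 33060 (0%, and 92 with the replicate block, no marker, with 1265 of all probes and none of the markers at an unadjusted p under 0.05). Its largest value was that of Krt18, 0.38 ± 0.89, and the smallest unadjusted p belonged to Krt7 (A_51_P312348), 0.35 ± 0.15 (limma adjusted p = 0.999).

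**Figure D4:**
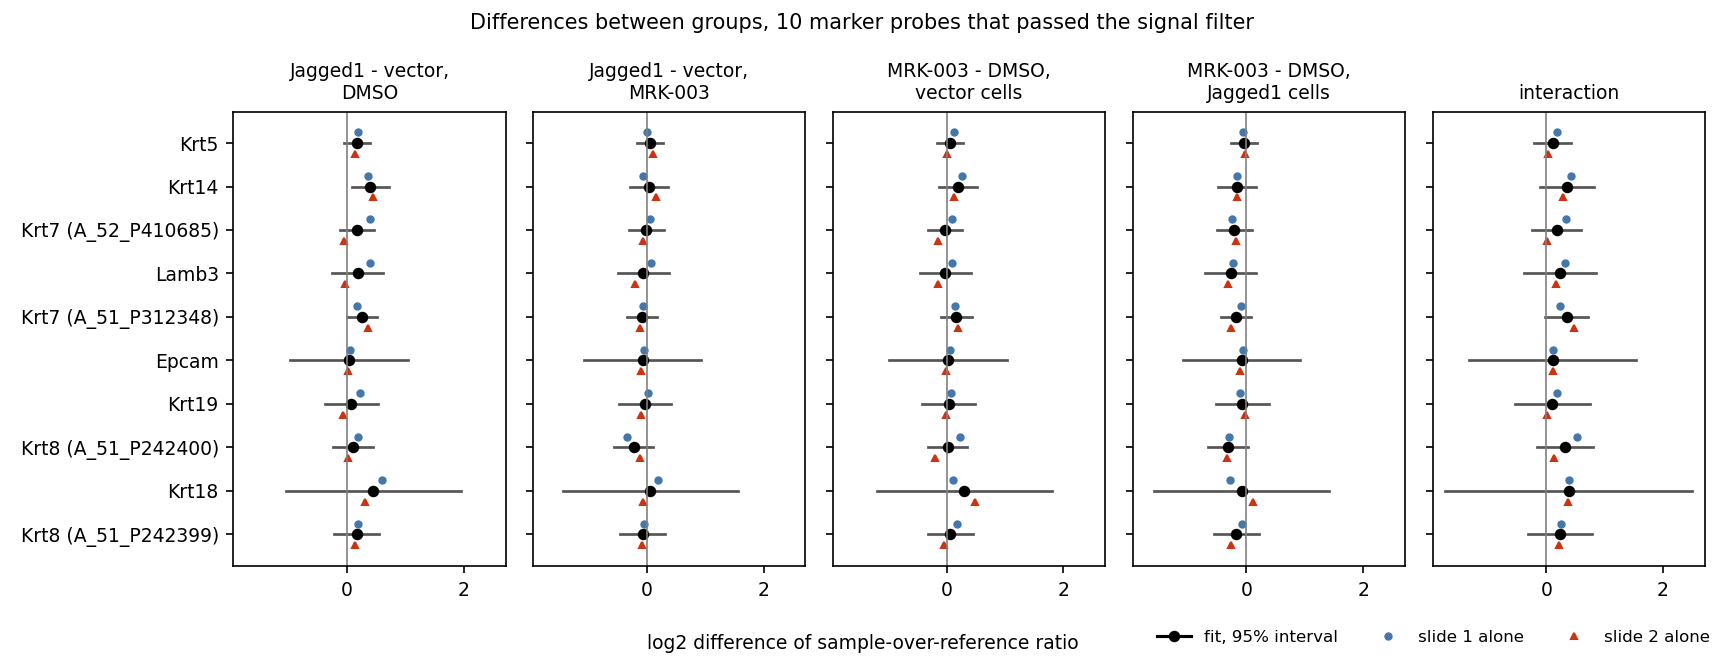
Each panel is a comparison; black points are log2 differences of the 10 marker probes that passed the signal filter, with 95% intervals from limma, and small circles and triangles are the differences within slides 1 and 2. No probe passed the test in any panel, and the widest intervals are those of Krt18 and Epcam.

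Other corrections also called no marker probe. Leaving the local backgrounds with no limit raised the marker differences for Jagged1 against vector in DMSO to a median of 0.62 and a highest value of 1.24, while the median of all probes stayed at -0.01. Leaving out 1 of the 4 DMSO arrays left 7 to 9 of the 10 differences positive.

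The wider epithelial list, 46 genes of tight junctions, desmosomes, hemidesmosomes, epithelial transcription factors and surface proteases, had a median level of -0.22, with 10 above the reference and 37 well above background in Cy3 on all arrays. Perp, a p53 target that helps to build desmosomes, was at -4.96, Cd24a at -3.94 and the luminal transcription factor Gata3 at -3.58. The tight junction gene Ocln and the splicing factor Esrp1 were well above background on no array. Many other members lay near 0, where both channels can be dim.

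Of the 41 that passed the signal filter, 22 differences were positive and 19 negative for Jagged1 against vector in DMSO, with a median of 0.01, and none passed. Gata3 had 0.31 ± 0.11 (limma adjusted p = 0.556) and Ovol1, a repressor of mesenchymal genes, 0.21 ± 0.10 (adjusted p = 0.743). A second Ovol1 probe, A_51_P225827, had 0.04 ± 0.09 (limma adjusted p = 0.934).

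With no block only Trp63, the p63 transcription factor of basal epithelium, passed in this list. For Jagged1 in DMSO and for MRK-003 with Jagged1 cells its sign was opposite to that of the 10 tested marker probes, none of which passed. Its probe A_51_P216550 had levels of 2.67 and 2.65 in vector DMSO, 0.61 and 1.07 in Jagged1 DMSO, 3.13 and 3.67 in vector MRK-003, and 3.11 and 3.70 in Jagged1 MRK-003. The Jagged1 DMSO arrays were the lowest of the 8, and MRK-003 raised it 5.91-fold with Jagged1 cells (2.56 ± 0.27, limma adjusted p = 0.0143). Jagged1 against vector in DMSO gave -1.82 ± 0.27 (adjusted p = 0.0974), which passed with the replicate block (adjusted p = 0.00366), as did its interaction of -1.82 (0.698 with no block, 0.0359 with it). The other 2 Trp63 probes, with mean levels of 0.39 and 0.19, did not pass: with MRK-003 and Jagged1 cells A_52_P17264 had 0.46 ± 0.15 (adjusted p = 0.242) and A_52_P338796 had -0.10 ± 0.13 (adjusted p = 0.816). The call was lost without replicate 1 of Jagged1 DMSO (adjusted p = 0.131), without its replicate 2 (0.0722) and without the second Jagged1 MRK-003 array (0.0891). With the block, and counting only the brightest probe of each gene, 2 more genes of the list passed for MRK-003 with Jagged1 cells, where 8.79% of all probes did. They were the junction protein Jup (-0.59 ± 0.13, adjusted p = 0.0954 with no block and 0.0177 with it) and the keratin Krt23 (0.48 ± 0.12, adjusted p = 0.145 and 0.0378). Krt23, a keratin outside the markers, thus had the same sign as Trp63 in this comparison.

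Most osteoblast and mesenchymal genes were above the reference. Of 24 genes in that list, 18 had a mean level above the reference, with a median of 1.06, and all were well above background on 8 arrays. Collagen type I was above the reference on every array: Col1a1 ranged from 1.70 to 3.45 and Col1a2 from 0.89 to 2.58. The mesenchymal cadherin Cdh11 ranged from 2.34 to 2.95, Cdh2 from 0.05 to 1.47, and vimentin (Vim) from -0.14 to 0.85. The osteoblast transcription factor Runx2 ranged from -0.02 to 1.13 and the alkaline phosphatase Alpl from -2.10 to -0.02. The other 5 members below the reference were Thy1 at -3.93, Twist2 at -3.13, the proteoglycans Dcn at -1.98 and Lum at -1.22, and the osteocalcin gene Bglap at -0.03. Thy1 and Twist2 were thus as far below it as some of the epithelial markers. Where Cdh1 was mostly not well above background in Cy3, Cdh11 and Cdh2 were well above background on all arrays.

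With no block, none of the 7 genes Col1a1, Col1a2, Cdh11, Cdh2, Vim, Runx2 and Alpl passed in any comparison, and with the replicate block 3 of them did. Over all probes, 1.62% passed for MRK-003 with Jagged1 cells with no block and 8.79% with it. For Jagged1 in DMSO these shares were 0.148% and 3.06%. Alpl had -1.12 ± 0.36 for Jagged1 against vector in DMSO (limma adjusted p = 0.501, with the block 0.00517) and 1.38 ± 0.36 for MRK-003 with Jagged1 cells (adjusted p = 0.150, with the block 0.00102), and its interaction of -1.15 passed with the block (adjusted p = 0.0476). Cdh2 had 0.52 ± 0.19 (adjusted p = 0.596) and -0.80 ± 0.19 (adjusted p = 0.122, with the block 0.0420). Runx2 had 0.83 ± 0.23 for MRK-003 with Jagged1 cells (adjusted p = 0.179, with the block 0.0380). In that list, on 1 probe per gene, the transcription factor Twist1 (1.20 ± 0.12, adjusted p = 0.0126) and the growth factor receptor Pdgfrb (-1.14 ± 0.12, adjusted p = 0.0147) passed for MRK-003 with Jagged1 cells, and are named after their values were seen. The Pdgfrb call was lost in every fit that left out 1 array of Jagged1 DMSO or Jagged1 MRK-003, with differences of -1.24 to -1.04. Of these fits, only the one without replicate 1 of Jagged1 MRK-003 kept the Twist1 call. The Twist1 differences in them were 1.10 or more. Pdgfrb also did not pass with no limit on local backgrounds (limma adjusted p = 0.0567), while Twist1 did (adjusted p = 0.0359). Over the 24 genes the block raised the number that passed from 2 to 10 for MRK-003 with Jagged1 cells (4 higher and 6 lower), from 0 to 5 for Jagged1 in DMSO (2 higher and 3 lower) and from 0 to 1 for the interaction. Over all probes the block raised the share that passed from 1.62% to 8.79%, from 0.148% to 3.06% and from 0% to 0.278% in the same order.

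Macrophage markers were also below the reference. The 10 macrophage genes on the array had a median level of -2.37, none above the reference, and the leukocyte phosphatase Ptprc was at -5.20. The 8 endothelial genes had a median of 0.05, with Tie1 well above background on no array. On 1 probe per gene, none of the 10 macrophage and 7 endothelial genes tested passed in any comparison, with the replicate block or with none. Over all probes at most 1.62% passed with no block and 8.79% with it, so few calls could arise among so few genes.

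**Figure D5:**
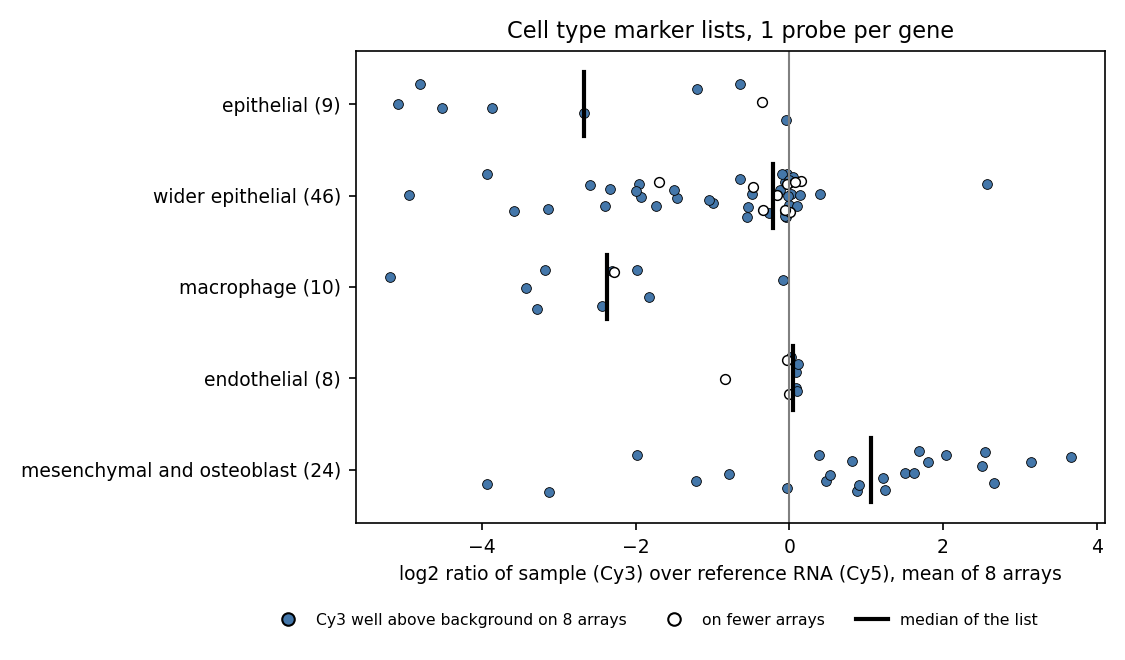
Each point is the mean level of 1 gene over 8 arrays (log2 ratio of sample over reference), by marker list with the number of genes in brackets; open points were not well above background in Cy3 on all arrays and bars are list medians. The epithelial and macrophage lists have medians of -2.67 and -2.37, and the mesenchymal and osteoblast list has one of 1.06, with 6 of its 24 genes below 0.

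Jag1, the gene that the Jagged1 tumour cells overexpress, moved where the keratins did not pass. Its probe A_52_P634090 had levels of 2.15 and 1.95 in vector DMSO, 3.33 and 3.30 in Jagged1 DMSO, 1.83 and 2.01 in vector MRK-003, and 1.99 and 2.09 in Jagged1 MRK-003. The rise in DMSO was 2.40-fold (1.27 ± 0.12, limma adjusted p = 0.0226), and in MRK-003 the difference was 0.12 ± 0.12. MRK-003 lowered it with Jagged1 cells by 2.43-fold (adjusted p = 0.0106). The first call was lost in every fit that left out 1 array, with differences of 1.16 to 1.37. The second was lost in every fit that left out 1 array of Jagged1 DMSO or Jagged1 MRK-003, with differences of -1.33 to -1.23. With no limit on local backgrounds neither passed (limma adjusted p = 0.181 and 0.0562). The second probe, A_51_P280906, had 0.73 ± 0.36 (adjusted p = 0.743, with the replicate block 0.0363) for Jagged1 in DMSO and -0.65 ± 0.36 (adjusted p = 0.525, with the block 0.0269) for MRK-003 with Jagged1 cells. Which species' transcript these probes read, and how much of it came from tumour cells, was not tested.

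Krt18 had the highest mean Cy3 signal of the marker probes over the 8 arrays, and its pattern over the 8 arrays was set beside that of 20335 other genes. Of these, 300 had a Pearson r over 0.9 with it. The closest were ENSMUST00000080362 and Slc35b1 (both r = 0.99), Eif3h (0.99), NAP046391-1 (0.99) and NAP061671-1 (0.98). All 5 were lower on slide 2, by 0.23 to 1.64, as Krt18 was. With 8 points that share 2 slides, and with Krt18 saturated in Cy5 on 7 arrays, these values describe the arrays only.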

How the data were processed

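RNA of 8 co-cultures (175 ng each) was measured on two-colour Agilent arrays. Per the file headers, spot values came from Feature Extraction 9.5.3.1, with probe positions on mm7. The deposited intensity values used were the mean signal and median local background of each spot, not normalized; the processed signals, per the file headers background-subtracted and dye-normalized, served as an alternative. The authors' deposited value table is on a log2 scale. Deposited 0 or 1 flags gave outliers, saturation and signals well above background. Other steps of the authors are unknown here.

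Local backgrounds were limited to 2 times the array median, corrected by normexp (offset 50), and ratios were normalized by loess within arrays with control spots at no weight. Outlier spots were dropped and spots of a probe averaged. A probe was tested if, in 1 group or more, each of its arrays had Cy3 well above background: 33060 stayed, 7811 were dim and 303 lacked a value. The 4 group means were fitted with limma 3.58.1 (R 4.3.3), with Benjamini-Hochberg adjustment over all tested probes in each of 5 comparisons; errors of differences are standard errors. The p-values rest on the spread between the 2 samples of a group, pooled over the 4 groups and adjusted by limma towards that of all tested probes. The number of samples limits the precision, and with no block this spread includes the difference between slides. The numbers pair the samples: those with the same replicate number share a slide. All 6 correlations of replicate deviations between groups were 0.36 to 0.85 over 33060 probes.

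The members and lists were chosen with earlier results of these data known. All member probes are named; of the wider list, those that passed and the 4 with the smallest p for Jagged1 in DMSO, of which 1 is not reported here; 7 osteoblast and mesenchymal genes, Jag1 and the 5 genes most like the member probe of highest mean Cy3 signal. List genes were represented by their brightest probe in Cy3. The fit was tested on simulated data.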

Additional observations from a re-analysis of the deposited data

How the results depend on the processing

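No marker probe passed in any of the 5 comparisons under any of the 22 alternatives; the count stayed at 0 throughout, and the lowest adjusted p was 0.0755, for Krt14 in Jagged1 against vector in DMSO with the replicate block. With the replicate number as a block, which pairs samples by slide, 0 marker probes passed in each comparison, while the count over all probes rose from 49 to 1013 for Jagged1 in DMSO, from 537 to 2905 for MRK-003 with Jagged1 cells from 0 to 92 for the interaction and from 0 to 1 for MRK-003 with vector cells. The calls that the block changed among named genes of other lists stand beside them. With no limit on local backgrounds it fell to 3 and 61, and with the block as well it was 76 and 484. Leaving out 1 array gave 0 to 15 and 29 to 372. The single differences, none called, changed sign in 9, 37, 31, 11 and 12 of 220 values per comparison, in the order Jagged1 in DMSO, Jagged1 in MRK-003, MRK-003 with vector cells, MRK-003 with Jagged1 cells and the interaction. For Jagged1 in DMSO, 9 of 10 were positive by median centring and with Cy3 alone. An offset of 16, chosen after seeing the data, moved the Epcam level to -4.40. Signal over background limits Cdh1, Epcam and Lamb3, whose median Cy3 net signals were 11.8, 44.0 and 51.4 units.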
